A study of Rattus norvegicus with 4 samples.

Results

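The transcript signals described here are those of wild-type (WT) rat skeletal muscle on 2 one-colour Agilent arrays, WT array 1 and WT array 2. Members were the non-control probes that the scanner software called well above background on both arrays, ranked by their mean log2 processed signal. Of 30367 non-control probes, 14196 met this rule. The array holds 26903 genes or unnamed accessions, of which 26754 had usable spots on both WT arrays. The member probes stood for 12830 of the 26754, and for 8193 of 15087 genes with a symbol. A gene is represented by its brightest probe above background.

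The series has 4 arrays of muscle from male rats aged 15 weeks. Beside the WT pair, 1 array came from an exercised SPORTS rat and 1 from a sedentary SPORTS rat, SPORTS being a line of rats known for high voluntary running. Per the series' design text the WT rats were sedentary, and both the WT and the SPORTS rats were of Wistar background. The labels name neither the muscle nor its collection time. Nothing in them shows that the WT pair comes from 2 separate animals. The p-values reflect the spread among these 4 arrays alone. The part of it from the WT pair can be purely technical, and the part from the SPORTS pair includes exercise.

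Skeletal muscle fibres are built from repeating sarcomeres, in which myosin motors of the thick filament pull on actin thin filaments when calcium binds to the troponin complex. Slow fibres use the slow or cardiac isoforms of myosin, troponin and the calcium pump, contain much myoglobin and many mitochondria, and resist fatigue. Fast fibres use separate genes for the same parts, buffer calcium with parvalbumin and rely more on glycolysis. Whole muscle also holds capillaries, nerve endings, connective tissue, fat cells and resident immune cells, whose transcripts are mixed with those of the fibres. In such bulk samples, fewer cells of a type and less RNA per cell cannot be told apart.

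Signals of the members ran from 87.88 to 402094 on WT array 1 and from 92.29 to 381200 on WT array 2, with medians of 1267 and 1255. The brightness of a probe depends on its sequence and its place in the transcript, so the rank describes array signal and sets no gene's transcript number against another's. Of 1103 genes with at least 2 probes above background, the brightest probe was a median of 3.05-fold above the dimmest, and 463 genes (42.0%) had probes over 4-fold apart. No probe was saturated. The 4 arrays lay on 1 slide, and 13285 probes were above background on both SPORTS arrays. Spiked-in control RNA of the brightest class gave 31610 on array 1 and 34178 on array 2.

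The array signal of genes with a symbol was led by oxygen storage, energy buffering and sarcomere genes of both slow and fast fibres. The brightest gene was Mb, which encodes the oxygen-binding protein myoglobin, at 402094 on array 1 and 381200 on array 2. Ckm, the muscle creatine kinase, followed at 393653 and 364868. Tnni1, the slow troponin I that inhibits contraction in the absence of calcium, was at 382413 and 359646. Among genes with a symbol, the next was Myh7, the slow and cardiac beta myosin heavy chain, at 360073 and 365575. It was followed by Tnnc2, the fast calcium-binding troponin C, at 358158 and 361659. These 5 genes are of both fibre classes, and their arrays lay within 0.09 of each other on the log2 scale after each array was scaled to its 75th percentile.

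The 250 bases before the start of these 5 genes are shown because the leading signals come from genes used almost only in striated muscle, and such genes carry short regulatory words near their starts. The sequences are from RefSeq, assembly GRCr8, written 5′ to 3′ on the gene's strand and ending at the base before the start. Capitals mark the E-box CAGCTG, a word that myogenic basic helix-loop-helix factors can bind, a MEF2 site or a CArG box on either strand, and the word TATAAA on the gene's strand within the nearest 100 bases. A MEF2 site can contain the word TATAAA.
Mb (chr7:110647743-110647992, - strand): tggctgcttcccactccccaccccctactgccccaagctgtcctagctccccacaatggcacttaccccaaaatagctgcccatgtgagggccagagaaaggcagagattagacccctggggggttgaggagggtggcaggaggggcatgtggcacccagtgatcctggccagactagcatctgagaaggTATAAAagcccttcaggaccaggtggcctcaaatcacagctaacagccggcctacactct
Ckm (chr1:88189211-88189460, + strand): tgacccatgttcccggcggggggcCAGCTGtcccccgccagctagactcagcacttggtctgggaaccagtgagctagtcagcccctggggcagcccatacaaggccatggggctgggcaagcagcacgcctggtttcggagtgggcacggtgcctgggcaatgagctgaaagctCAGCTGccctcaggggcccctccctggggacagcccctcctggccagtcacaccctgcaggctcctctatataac
Tnni1 (chr13:49781279-49781528, + strand): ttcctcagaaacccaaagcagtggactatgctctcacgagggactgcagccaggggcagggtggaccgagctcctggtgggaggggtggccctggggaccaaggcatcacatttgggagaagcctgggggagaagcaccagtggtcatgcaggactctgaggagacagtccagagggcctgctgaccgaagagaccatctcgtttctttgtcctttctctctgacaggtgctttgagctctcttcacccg
Myh7 (chr15:32438195-32438444, - strand): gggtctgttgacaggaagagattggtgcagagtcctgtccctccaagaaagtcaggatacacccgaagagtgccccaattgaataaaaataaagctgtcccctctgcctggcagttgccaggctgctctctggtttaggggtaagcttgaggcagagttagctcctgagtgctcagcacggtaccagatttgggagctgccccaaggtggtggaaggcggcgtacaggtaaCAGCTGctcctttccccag
Tnnc2 (chr3:173935340-173935589, - strand): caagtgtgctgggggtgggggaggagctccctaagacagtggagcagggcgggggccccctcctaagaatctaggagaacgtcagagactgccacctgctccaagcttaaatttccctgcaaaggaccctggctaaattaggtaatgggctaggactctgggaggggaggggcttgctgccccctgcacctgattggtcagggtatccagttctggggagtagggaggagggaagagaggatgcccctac
Mb held TATAAA at bases -60 to -55 from the start. Ckm held the E-box at bases -226 to -221 and -75 to -70, and Myh7 held it at -19 to -14. Tnni1 and Tnnc2 held none of the 4 words in this window, which says only that these letters are not there.

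Among the 100 brightest genes with a symbol, 85 matched a promoter in the table, and 23 of them (27.1%) held CAGCTG. The share was 11.9% of all 27457 promoters and 12.3% of the 6758 promoters of named members. TATAAA stood in the nearest 100 bases of 14 of the 85 (16.5%), against 4.13% of all promoters and 2.97% of the members. For the 50 detected sarcomere genes, 39 matched, of which 11 (28.2%) held CAGCTG, 8 (20.5%) TATAAA and 5 (12.8%) a MEF2 site, a site present in 3.07% of all promoters. Ribosomal protein genes, with 61 matched promoters, held CAGCTG in 4.92%, TATAAA in 6.56% and a MEF2 site in 0. The 100 brightest held a MEF2 site in 3.53%, close to the share of all promoters. A CArG box stood in 1.5% of all promoters. It was found for 4 of the 100 brightest genes (4.71%), 3 sarcomere genes (7.69%) and 1 ribosomal protein gene (1.64%). Median GC content was 60.0% for members, 51.2% for named genes above background on neither WT array and 56.4% for the 100 brightest. These are word counts and not measured binding.

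Of the 25 brightest genes with a symbol, 13 belonged to 4 sarcomere lists (myosin heavy chains; light chains and myosin-binding proteins; thin filament; Z-disc and M-band). A further 2 belonged to a respiratory chain list, which lacks the ATP synthase gene Atp5me, and 2 encoded ribosomal proteins. The small chaperone gene Cryab, which protects desmin and other filaments, had 347146 on array 1 and 344407 on array 2. Fhl1, a LIM-domain protein of the sarcomere, had 327068 and 324889, and the actin-anchoring gene Nrap had 306264 and 299410. Cox6a2, the muscle form of a cytochrome oxidase subunit, had 310031 and 323765. The ATP synthase genes Atp5me and Atp5f1a, the mitochondrial isocitrate dehydrogenase gene Idh2 and the muscle enolase gene Eno3 completed the metabolic genes among the 25. Rplp0, Rpl41 and the growth-related gene Tpt1 were also there. The rank of some depended on the probe. With a gene's median probe in place of its brightest, Tpt1 went from rank 27 to 1150 and Fhl1 from 15 to 179.

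Of the 100 brightest genes or accessions, 60 had a symbol, and the others stay unidentified here. In the 100 brightest genes with a symbol, which reach down to rank 230, 21 were of the sarcomere lists. A further 14 were of the respiratory chain and ATP synthase list, and 24 encoded cytosolic ribosomal proteins. That respiratory list is not complete. The other 41 also held Atp5me, Uqcr10, Atp5f1e, Ndufb9, Atp5mg and Uqcrh, genes of the same complexes. Apobec2, a muscle-enriched member of the cytidine deaminase family, was among the 41 at 240638 and 235071. H19, an imprinted long noncoding RNA, was there too, at 215753 and 179187. H19 was also the gene furthest apart between the arrays among these 100, by -0.25 on the log2 scale, array 2 minus array 1. Of 79 ribosomal protein genes on the array, 76 were above background and 69 ranked among the 1000 brightest genes. The 100 brightest probes carried 16.5% of all signal on array 1 and 16.3% on array 2, and the 1000 brightest 67.3% and 67.4%.

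**Figure D1:**
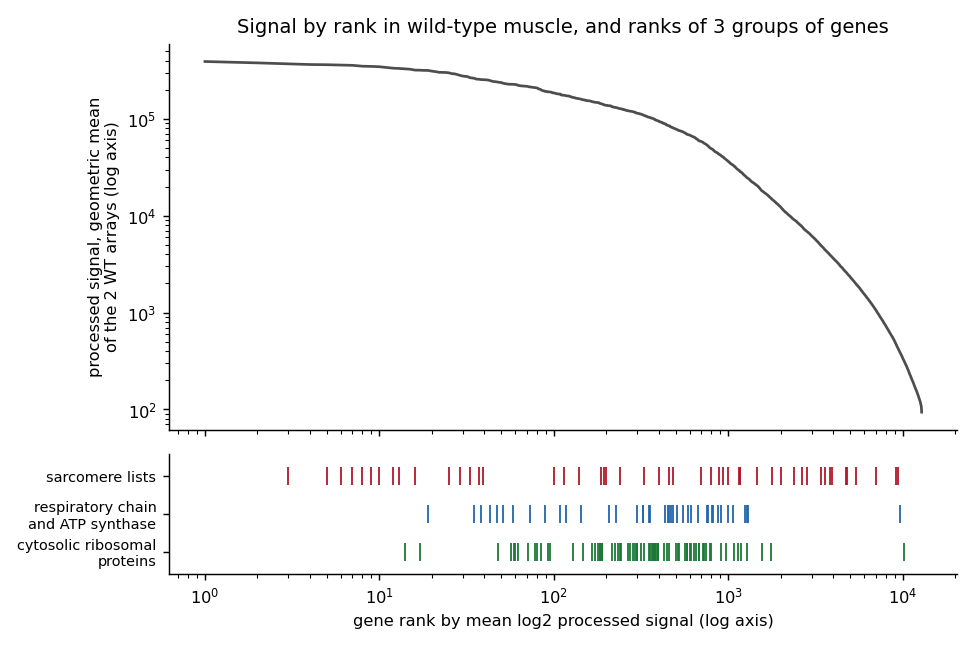
Upper panel: processed signal (geometric mean of the 2 WT arrays, log axis) of every gene or accession above background on both, by rank (log axis). Lower panel: the ranks held by 3 groups of genes, 1 mark per gene; sarcomere genes include 8 of the 10 brightest named genes, and 69 of 76 detected ribosomal protein genes lie within rank 1000.

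Myosin heavy chains, the motors of the thick filament, were detected for 8 of 8 genes with a named probe, where 54.3% of all named genes were detected. Slow Myh7 was accompanied by Myh6, the alpha cardiac chain, at 352234 on array 1 and 348291 on array 2, and by Myh8, the perinatal chain, at 373887 and 341970. Myh6 and Myh7 are near-identical neighbours, and Myh8 closely resembles the adult fast chains, so these labels are uncertain where probes can bind more than 1 transcript. Of the fast chains, IIa Myh2 gave 82719 and 87738, and its second probe gave 41976 and 46663. The IIx gene Myh1 gave 39498 and 21104, and the IIb gene Myh4, the fastest chain, gave 2239 and 2881. Embryonic Myh3 gave 37136 and 36558, with a second probe at 24964 and 21607. Myh7b, a relative of the slow chain, gave 3648 and 4187. Thus all 8 of the 10 listed chains that had a named probe gave a measured signal. They included probes labelled with embryonic, perinatal or atrial chains, within the limit on labels given above. Myh1 was the one furthest apart, at -0.88.

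Myosin light chains stabilise the lever arm of the motor. The slow and ventricular chains Myl3 (337645 and 330518 on arrays 1 and 2) and Myl2 (263355 and 246163) were both among the 40 brightest genes. The embryonic and atrial chain Myl4 gave 285646 and 277056. The fast chains Myl1 and Myl11 gave 127340 and 127555, and 248401 and 286373. The atrial regulatory chain Myl7 was not above background, at 22.1 and 20.6. Slow myosin-binding protein Mybpc1 gave 261157 and 252879, while the cardiac form Mybpc3 was not above background, at 20.8 and 23.0. Of the isoforms known also from heart, Myl2, Myl3 and Myl4 were thus bright, while Myl7 and Mybpc3 were not detected. Myl6, the nonmuscle light chain, Mylk2, the skeletal light chain kinase, and Mybph were above background at 51257, 29044 and 4369 on array 1. A second Mylk2 probe gave 3057 on that array.

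All 16 thin filament genes with a named probe were detected, 9 of them among the 100 brightest. Both troponin sets were bright. The slow set had Tnnc1 at 365091 and 332673 and Tnnt1 at 334106 and 329655 beside Tnni1. The fast set had Tnni2 at 313146 and 325540 and Tnnt3 at 175538 and 196540 beside Tnnc2. The cardiac subunits were dimmer, Tnni3 at 388 and 485 and Tnnt2, also the embryonic form, at 2769 and 2485. Skeletal actin Acta1 gave 296872 and 301889, and cardiac actin Actc1 gave 31310 and 27442. Of the tropomyosins that cover myosin-binding sites, Tpm1 gave 97661 and 121662, Tpm2 11826 and 12641 and slow Tpm3 8143 and 7404. Second probes of Tpm1 and Tpm3 were dimmer, at 2543 and 2721, and at 123 and 150. The actin-length regulators Tmod4 and Lmod2 gave 135012 and 133329 on array 1, and Tmod1 gave 1037.

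All 17 genes of Z-disc, M-band and titin-associated proteins with a named probe were detected, 14 of them higher on array 2, as were 52.7% of all members. After Cryab, the brightest were the stretch-responsive Ankrd2 (171327 and 179357), the intermediate filament gene Des (150523 and 173465) and the LIM protein gene Csrp3 (138140 and 149831). The alpha-actinins, which anchor actin at the Z-disc, differed in how closely the arrays matched. Actn2, present in all fibres, gave 82161 and 78760. Actn3, restricted to fast fibres, gave 2517 and 5616, a difference of 1.18 on the log2 scale, the only gap of at least 2-fold among the 50 detected sarcomere genes (0.421% of all members had one). Myot, Myoz1, Myom1 and Ankrd23 lay between 40370 (Ankrd23, array 2) and 96424 (Myot, array 2). Flnc, Xirp2, Smpx, Myom2, Pdlim3, Ankrd1 and Pdlim5 were dimmer, down to 468 and 463 for Pdlim5.

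Calcium release and reuptake genes were detected for 17 of 18. Both calcium pumps were bright, the fast Atp2a1 at 240204 and 213327 and the slow Atp2a2 at 216409 and 206265. A second Atp2a2 probe was dimmer, at 23947 on array 1. Trdn, which ties the release channel to calsequestrin, gave 119990 and 125486, and the calcium channel gene Cacna1s gave 124517 and 130669. Sln, a pump inhibitor, gave 42825 and 34050. Pvalb, the calcium buffer of the fastest fibres, was at 1379 and 2163. Of these genes, Jph1, which holds the tubule and reticulum membranes together, was not above background, at 25 and 27.3, while its relative Jph2 was, at 1205 and 1286.

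**Figure D2:**
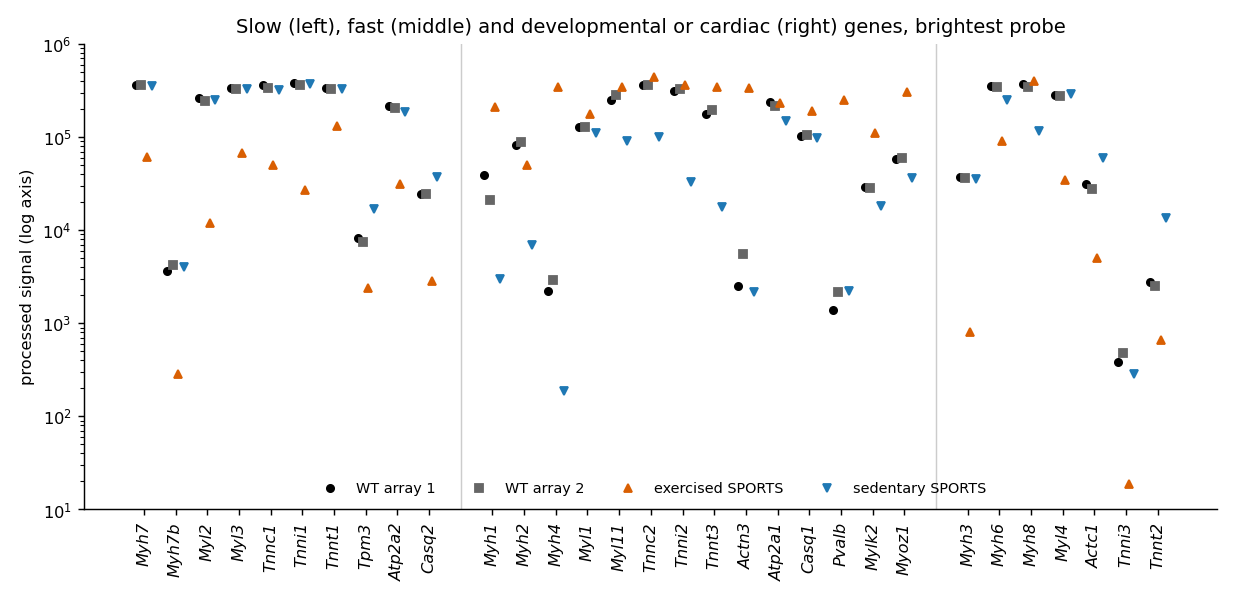
Processed signal (log axis) of slow (left), fast (middle) and developmental or cardiac (right) fibre genes on each of the 4 arrays, 1 point per array and gene, brightest probe. On the WT arrays Myh7 and Tnni1 stand beside Tnnc2 and Tnni2 at 313146 or higher, while Myh4, Actn3 and Pvalb lie at 5616 or lower.

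The mean of the WT arrays lay near the sedentary SPORTS array by the median of the slow fibre genes, and between the SPORTS arrays for 12 of 14 fast fibre genes. Of 10 slow fibre genes chosen from textbook isoforms with their values known, all 10 were at least 2-fold higher on the mean of the WT arrays than on the exercised SPORTS array. That difference was found for 11.7% of all members, and the reverse for 7.92%. Of 14 fast fibre genes, 8 were at least 2-fold lower in WT than on the exercised array. Against the sedentary SPORTS array, 0 slow genes were at least 2-fold higher in WT and 1 was lower, while 7 of 14 fast genes were at least 2-fold higher, against 2.74% of all members higher and 2.11% lower. Tnni1 gave 27308 on the exercised and 370055 on the sedentary array, so WT lay beside the sedentary array. Tnni2 gave 360761 and 32840, so WT lay beside the exercised array. Myh2 gave 50262 and 6988 there, and was thus highest in WT. Of the slow genes, 7 were higher in WT than on both SPORTS arrays, most by a small amount over the sedentary one, and 3 lay between. Median log2 differences of WT from the exercised array were 2.44 for slow genes and -1.22 for fast genes, against -0.0022 over all members. From the sedentary array they were 0.05 and 1.20, against 0.015. With 1 array per SPORTS group these differences have no replicate check.

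Listed genes of oxidative metabolism with a named probe were all detected, where 54.3% of all named genes were. Of 44 listed respiratory chain and ATP synthase genes, 41 had a named probe, and all 41 were above background on both WT arrays. So were all 20 listed genes of the tricarboxylic acid cycle and all 20 of fatty acid uptake and oxidation. The range within a pathway was wide. Of the listed genes, Cox8b, the heart and muscle form of a cytochrome oxidase subunit, followed Cox6a2 and Atp5f1a at 254879 and 255080. Uqcrq of complex III gave 397 and 381. After Idh2, the brightest cycle genes were Idh3g (87177 and 99039) and Suclg1 (83115 and 81125). For fatty acids, the binding protein gene Fabp3 (154293 and 146242), the long-chain dehydrogenase gene Acadl (148911 and 146611) and the carnitine transferase gene Cpt1b (100803 and 102770) led. The fasting-responsive Pdk4, which restrains pyruvate oxidation, was at 738 and 705.

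All 19 glycolysis and glycogen genes were also detected. Eno3 was followed by Gapdh (188091 and 183986) and Ldhb (176638 and 169270), the lactate dehydrogenase subunit typical of heart and slow muscle. Its fast-muscle counterpart Ldha gave 108837 and 120168. Phka1, the muscle phosphorylase kinase subunit, was the dimmest at 135 and 138, and hexokinase Hk2 gave 321 and 330. Beside Mb and Ckm, the mitochondrial creatine kinase gene Ckmt2 gave 190818 and 216512. Car3, a carbonic anhydrase of slow fibres, gave 117536 and 113705. Of regulators, the nuclear receptor gene Esrra led at 24790 and 24123, followed by the mitochondrial DNA factor gene Tfam at 9135 and 9293 and the kinase gene Prkaa2 at 4017 and 4185. Esrrb and Esrrg, relatives of Esrra, were not above background, at 22.8 and 21.6, and at 25.7 and 36.0. The insulin-regulated glucose transporter gene Slc2a4 gave 36523 and 36418, with Tbc1d1 also detected, but the adaptor gene Irs1 was not above background, at 74.9 and 93.4.

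Several genes known from muscle were not above background on either array. Myostatin, Mstn, which restrains muscle growth, was at 21.1 and 20.1, beside a median of 22.2 and 20.6 for all undetected probes. Also not above background were 4 more of 14 secreted factors, Il6, Bdnf, Fgf21 and Lif, with signals from 19.8 to 44.2 on array 2. Other myokine genes were detected, led by Sparc (129236 and 124167), Igf1 (14752 and 15649) and Vegfa (8201 and 9545). Musk, the receptor kinase that assembles the neuromuscular junction, was at 21.5 and 19.3, although 11 of 12 junction genes were detected, led by Chrnb1 (8372 and 8230), Agrn (5174 and 5847) and Chrnd (3666 and 3462). The fetal receptor subunit gene Chrng was above background at 576 and 506. A missing signal can come from a probe that does not report its transcript. Of 2591 named genes with several probes, 701 had some above background and some not.

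Of 11 myogenic genes, 10 were detected on both arrays, led by the differentiation factor gene Myog (5876 and 5860), Mef2d (5460 and 5335) and Pax3 (4748 and 4363). Pax7, the satellite cell factor, was above background on array 2 (185) and not on array 1 (50.6). Of 11 position genes, 6 were detected, a share close to that of all named genes, led by Tbx1 (6513 and 6582), Hoxd9 (2709 and 2781) and the limb migration factor gene Lbx1 (2610 and 2553). The hindlimb factor gene Pitx1 gave 916 and 1028. Tbx4, Tbx5, Msc, Tcf21 and Hoxd10 were not above background on either array, from 18.6 to 88.1 on array 2. Atrophy and autophagy genes were detected for 10 of 10, led by Bnip3 (60609 and 62711), Gabarapl1 (43106 and 40652) and Map1lc3a (38044 and 34718).

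Markers of other organs checked the tissue label. Liver markers were at background for 10 of 10 genes, with the albumin gene Alb at 21.5 and 19.4. Of 7 brain neuron markers only Camk2a was detected, at 167 and 202, and of 11 markers of gut, kidney, skin and testis only Prm1, at 169 and 120. Of 13 heart genes 6 were detected, Myh6, Myl4, Tnnt2, Ryr2, Tnni3 and Hcn4. Of all named genes 54.3% were detected, so this count alone does not set the heart genes apart. The heart hormones Nppa and Nppb and the cardiac factors Nkx2-5, Gata4 and Tbx20 were not. The detected heart genes thus included isoforms shared with skeletal muscle. They also included the cardiac subunit gene Tnni3 (388 and 485) and Hcn4 (120 and 126), both dim. The listed heart hormone and factor genes were at background.

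**Figure D3:**
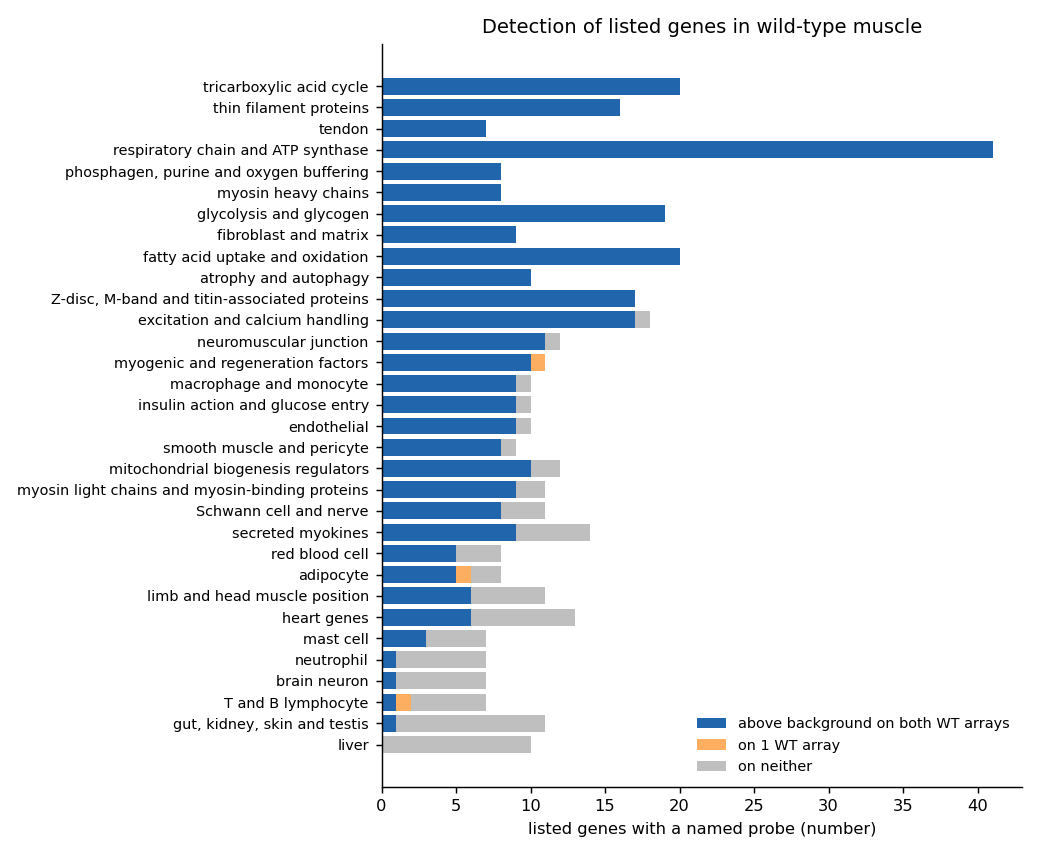
Number of listed genes above background on both WT arrays (blue), on 1 (orange) and on neither (grey), for lists of sarcomere, muscle, metabolism, position, cell type and other-tissue genes. The bar of the respiratory chain is full at 41 of 41, and that of liver is empty at 0 of 10.

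Several other cell types had measured markers. Fibroblast and matrix genes were detected for 9 of 9, led by Col1a2 (112722 and 111412), Col1a1 (71342 and 70846) and Dcn (53703 and 47692). All 7 tendon genes with a named probe were detected, led by Fmod (69605 and 63169), Scx (19242 and 17541) and Chad (6693 and 6005). Endothelial genes were detected for 9 of 10, led by the VEGF receptor gene Kdr (5568 and 5906), Pecam1 (4683 and 4708) and Cd300lg (1278 and 1361). Smooth muscle and pericyte genes were detected for 8 of 9, led by Smtn (16434 and 16548), Cspg4 and Tagln. The globin genes Hba-a1 (144617 and 163256), Hbb-b1 (56704 and 65254) and Hbb (51664 and 63319) led the red blood cell list. Globin copies are close enough that a probe can report more than 1 of them. Nerve was represented by Pmp22 (7541 and 7029), Mbp (2225 and 1807) and S100b (601 and 596), while Cdh19 and Nefl were at background. Neutrophil and lymphocyte markers were detected for 1 of 7 each, Cxcr2 and Cd3d, and mast cell markers for 3 of 7, Cma1, Tpsab1 and Cpa3. These are signals of tissue RNA and were not turned into cell shares.

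The next question was where the WT arrays disagreed. Over all members the log2 differences between the pair spread with an SD of 0.192 and a median size of 0.071, and the log2 signals had r = 0.9974 across probes, which are not independent replicates and share the slide. The spread was larger for dim probes, with an SD of 0.287 in the dimmest of 4 equal bins (mean signal up to 371.4) and 0.107 in the brightest. Repeated spots of a probe within 1 array varied less. The 1068 probes with repeated spots had a median spot SD of 0.0587 on array 1 and 0.0411 on array 2. Their differences between arrays had an SD of 0.126, against a median standard error of 0.024 from the spots.

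At least a 2-fold difference was found for 54 of 12830 genes or accessions (0.421%), 24 higher on array 1 (0.187%) and 30 higher on array 2 (0.234%). With normexp background correction the count was 22. Of the 54, 51 had a mean signal under 1000, where 44.2% of the members lay, and 0 a signal over 10000. With 1 array on each side there is no test. The 54 included 30 genes with a symbol, 17 higher on array 1 and 13 on array 2. They were mostly dim genes of unrelated roles, and only Mt2A and Actn3 among the named ones had signals above 2000 on both arrays.

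Higher on array 1 was first Dpf1, a chromatin factor gene of neurons, at 776 on array 1 and 95.7 on array 2, a log2 difference of -3.00. That probe had 1 spot per array, and a second Dpf1 probe was not above background on either array. Next were the glutamyl transferase gene Ggt5 (859 and 242), Rsbn1l (463 and 144) and Prodh2 (460 and 146). The phosphatase gene Dusp19 (444 and 141), the phosphodiesterase gene Pde7b (472 and 155) and the autophagosome gene Stx17 (385 and 130) followed. Pde7b was one for which a second probe differed the other way, by 0.27. The glucose-responsive factor gene Mlxipl (634 and 224), the Fc receptor gene Fcgr2al1 (865 and 308) and Adap1 (422 and 181) closed the 10 largest among genes with a symbol. Under normexp Adap1 differed by -0.88, less than 2-fold. Mt2A, a metallothionein that binds zinc and copper, was at 5258 and 2463 (-1.07), with a standard error of 0.023 over 10 spots per array, and its second probe differed by -0.91. Mt2A was named after its values were seen.

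Higher on array 2 was first Dync1i1, a dynein chain gene of neurons, at 134 and 544 (2.04), but its second probe was above background on array 1 only, at 146 and 27.4. The myristoyl transferase gene Nmt2 (120 and 425), Appbp2 (140 and 398) and Tm6sf2 (161 and 451) were next. The SUMO protease gene Senp3 (283 and 744), the RNase gene Zc3h12a (111 and 290) and Tm4sf5 (136 and 328) followed. Actn3 was the brightest of these. The amino acid transporter gene Slc1a5 (312 and 690) and the chemokine receptor gene Cxcr2 (187 and 397) closed the 10 with a symbol. Under normexp 6 of these 10 were less than 2-fold apart, Tm6sf2 (0.91), Appbp2 (0.87), Cxcr2 (0.84), Slc1a5 (0.83), Tm4sf5 (0.79) and Zc3h12a (0.72). Just inside the 2-fold limit lay Otud3 at -1.07 and Ntn4 at 1.02, and just outside lay Trappc14 at -0.99 and Cln6 at 0.98.

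Of 15087 named genes, a further 440 were above background on 1 WT array, 205 on array 1 and 235 on array 2. Of the 440, 88 differed by at least 2-fold against the lowest signal above background on the other array. The 88 included odorant receptor genes, such as Or2n1 (17.9 and 405) and Or9s23b (393 and 18.6). The adhesion gene Cadm4 was at least 7.74-fold higher on array 2, the amino acid transporter gene Slc7a5 at least 6.62-fold and the dynein chain gene Dync1li1 at least 5.85-fold. Hapln2, a matrix link protein gene, was at least 5.25-fold higher on array 1. All these genes were chosen after their values were seen, and each has 1 probe with 1 spot per array.

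**Figure D4:**
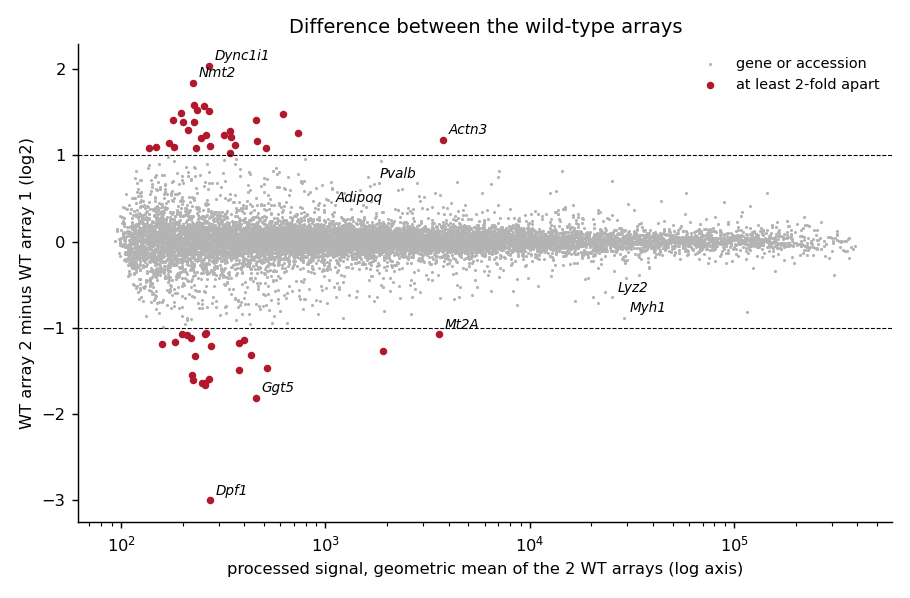
Difference between the WT arrays (array 2 minus array 1, log2) against their geometric mean signal (log axis), 1 point per gene or accession above background on both. The 54 at least 2-fold apart (red, beyond the dashed lines) are mostly under a signal of 1000, and the spread narrows toward bright genes.

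Small differences of the same sign ran through some marker lists, and 3 of 30 lists with at least 5 detected genes lay wholly on 1 side. By any amount, 47.3% of members were higher on array 1 and 52.7% on array 2. Spiked-in control RNA differed by a mean of 0.080 over 10 classes after the same scaling, from -0.13 to 0.31. Both ends of that range came from dim classes, with signals of 32.4 or lower. The classes from the brightest down to one at 75.6 on array 1 were all higher on array 2, by 0.10 to 0.17. The brightest class was higher on array 2 by 0.13. The part of scaling in list medians of this size was not tested. All 9 detected macrophage and monocyte genes were higher on array 1, with a median of -0.50 and a range of -0.88 to -0.33. The lysozyme gene Lyz2 was at 31783 on array 1 and 20052 on array 2, and the complement genes C1qb and C1qa at 14715 and 10968, and at 7188 and 5412. Mrc1, the tenth, was not above background. Of 9 fibroblast genes 7 were higher on array 1 (median -0.15), of 7 tendon genes 6 (-0.12), of 11 junction genes 10 (-0.16) and of 8 Schwann cell and nerve genes 6 (-0.18). Connective tissue, nerve and macrophage genes were thus mostly on the side of array 1.

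On the side of array 2 were all 5 detected red blood cell genes, with a median of 0.23 and a range of 0.20 to 0.36. All 11 detected immediate early genes, which respond within minutes to stimulation, were also higher on array 2, with a median of 0.25. Fos gave 432 and 767, while the brightest, Jun, Ier3 and Nr4a1, gave 7210 and 7819, 6557 and 6498, and 4097 and 4877. Ier3 differed by 0.0075 after scaling. Of 5 adipocyte genes 4 were higher on array 2 (median 0.39), including the adipokine genes Adipoq (841 and 1334) and Retn (419 and 727). Cfd, the brightest, gave 13069 and 16942, and Fabp4 gave 8916 and 9709. Lep and the brown fat gene Ucp1 were at background. The Fos, Retn and Adipoq differences were each under 2-fold.

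Most other lists lay close to 0. Of 30 lists with at least 5 detected genes, 20 had a median within 0.1. Beyond that limit, besides lists given above, lay interferon-induced genes (median 0.137, 8 of 13 higher on array 2) and endothelial genes (0.105, 6 of 9). The respiratory chain had 0.03, the tricarboxylic acid cycle -0.00087 and fatty acid oxidation -0.0015. Heat shock and chaperone genes had a median of -0.06, with 9 of 11 higher on array 1, led by Hspb6, Hspa8 and Hspb1. Within fibre genes the fast list ran from -0.88 for Myh1 to 1.18 for Actn3, with 11 of 14 higher on array 2, while the slow list ran from -0.12 to 0.22. Myh4 (0.38) and Pvalb (0.67) were higher on array 2 together with Actn3, and Myh1 was higher on array 1. The part of nerve, fat, blood or macrophage content in any other difference between these arrays was not tested.

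**Figure D5:**
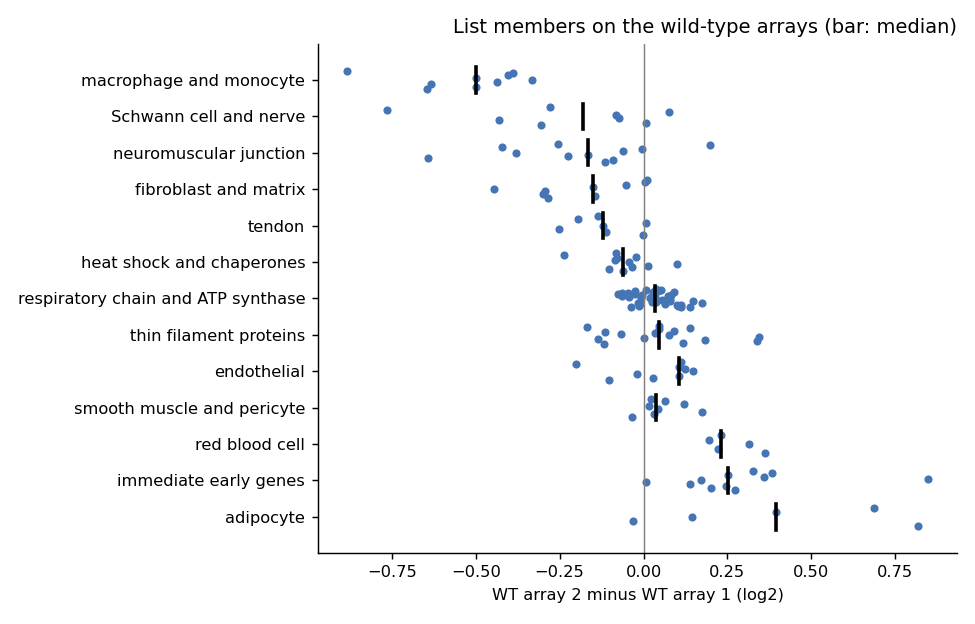
Difference between the WT arrays (array 2 minus array 1, log2) of each detected member of 13 lists, 1 point per gene, with the list median as a bar. All 9 macrophage genes lie left of 0, and all 5 red blood cell and 11 immediate early genes lie right of it.

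The test of WT against the rest of the series compared both WT with both SPORTS arrays with limma. The exercised and sedentary SPORTS arrays formed 1 group, so any difference between them counted as spread. A lack of calls therefore does not show that WT and SPORTS muscle were alike. None of 13324 genes passed at an adjusted p under 0.05 (0% called), and 981 had an unadjusted p under that value. The 25 brightest WT genes had adjusted p from 0.735 to 0.999 in the limma fit, and the 50 detected sarcomere genes from 0.672 to 0.999. Leaving out 1 SPORTS array changed the count, since the spread then came from the WT pair alone. Without the sedentary SPORTS array limma called 7240 genes, and without the exercised one 1309. With quantile normalization, and likewise with normexp, 1 gene was called, Vegfb.

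Vegfb, a growth factor gene of the VEGF family, led the genes detected in WT and not in SPORTS muscle. Of 15040 named genes compared, 80 were above background on both WT and neither SPORTS array, and 69 the reverse. Only 20 of the 80 were higher in WT by a lower bound of at least 2-fold. Vegfb was at 7071 and 7186 on the WT arrays and at 19.5 and 18.7 on the exercised and sedentary SPORTS arrays, at least 79.9-fold higher in WT (limma adjusted p = 0.132). Vegfb has a single probe here, and a difference in the sequence it binds was not tested. The capillary glycoprotein gene Cd300lg, at 1278 and 1361 against 53.3 and 27.1, was at least 14.8-fold higher in WT (limma adjusted p = 0.325). Rhbdl3, the glucagon receptor gene Gcgr and the retinoid-binding gene Crabp1 followed at 5.50-fold, 4.79-fold and 4.64-fold as lower bounds, with limma adjusted p of 0.53, 0.30 and 0.302. Under normexp the bounds were lower, 41.9-fold for Vegfb, 7.54 for Cd300lg, 3.45 for Rhbdl3, 3.22 for Gcgr and 3.08 for Crabp1.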

How the data were processed

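Muscle RNA (100 ng) was labelled with Cy3 and hybridised to 4 one-colour Agilent arrays, per the labels. Per the file headers, signals were read out with Agilent Feature Extraction 10.7.1.1. The deposited intensity used is the processed signal, background-subtracted and detrended within each array and not scaled between arrays, per the file headers. Median spot and local background intensities, also deposited, entered only the normexp alternative (offset 50). The authors' value table holds log2 values: differences between its WT columns matched those of the processed signal (r = 1, 30015 probes), every row's median was 0, and column medians were 0.02 and -0.02 for WT, 0.17 for exercised and -0.15 for sedentary SPORTS.

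Control spots and flagged outliers were left out, which dropped 178 probes of the WT arrays, and spots of a probe were averaged. Probes were named by unversioned accession through the RefSeq table of GRCr8, which named 17998 (59.3%) of 30367. The array design predates that assembly, so no probe coordinates are given. Differences are log2 signal minus the array's 75th percentile, array 2 minus array 1. A bound compares the brighter value with the higher of the dim probe's own value and the lowest signal above background on its array. limma 3.58.1 in R 4.3.3 compared WT with SPORTS over all genes above background on at least 2 arrays, with two-sided Benjamini-Hochberg adjusted p-values, and was tested on simulated data. Tables used Python 3.11.15 and pandas 2.3.3.

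The members and 36 gene lists were chosen with earlier results of these data known. Named were the 25 brightest genes, all sarcomere list members, the 3 brightest of each other list and its undetected muscle, metabolism and position genes, the 10 furthest apart each way, and the 5 with the largest bounds over SPORTS. A few named genes are not reported here. Genes added after their values were seen include the slow and fast fibre sets. Alternatives were normexp, quantile and median scaling, other filters on dim probes, the median probe, the authors' table and leaving out each array.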

Additional observations from a re-analysis of the deposited data

How the results depend on the processing

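The number of genes above background on both WT arrays was 12830, from 13227 to 16329 under the alternatives. Of the 100 brightest genes, 84 (median probe of a gene) to 100 stayed under the 7 alternatives run. The count of genes with a gap of 2-fold or more within the WT pair was 54, and again 54 with median scaling, quantile normalization or the authors' table and 63 over every probe. It was 22 with normexp, 469 with genes above background on at least 1 array, 252 when dim values were set to a floor and 1232 with no filter. The larger counts come from testing genes at background on 1 or both arrays. SPORTS against WT called 0 genes, 1 with quantile normalization and 1 with normexp (Vegfb, adjusted p = 0.0229 and 0.0391 by limma), and from 0 to 7240 without 1 array. A lone SPORTS array was assumed there to vary like the WT pair. No result reversed under the alternatives run. Among single genes under alternatives, 45 values moved, mostly ranks, and 285 did not. No paired analysis was possible because the groups compared share fewer than 2 replicate numbers. Precision is limited by the number of arrays and, for dim probes, by signal over background.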

Other observations

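Genes outside the main groups also had measured levels in WT muscle. Clock output was led by Dbp, a transcription factor gene with a strong daily rhythm, at 73517 on array 1 and 77750 on array 2, followed by its relative Tef at 10459 and 10243. The core factor gene Bmal1 was at 266 and 206, and Per1 was not above background, at 52.3 and 52.5. The interferon-induced list, detected for 13 of 15 genes, included Ifi27 (76389 and 70981) and Mx2 (9430 and 10231), while Ifit1 and Oasl were at background.

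Genes among the 100 brightest with a symbol spanned a median of 5609 bases of the genome, against 19882 for detected genes and 13420 for named genes above background on neither WT array. Ceacam9, not a gene known for muscle, ranked 64 with 229599 and 212154, from an array whose names predate the current assembly.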
